A study of Mus musculus and Homo sapiens with 12 samples.

Results

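The matrix metalloproteinase (MMP), ADAM, ADAMTS and TIMP gene families were examined in 2 comparisons of liver tumours grown from pancreatic ductal carcinoma cells. Members were all rows whose gene symbol is an MMP, ADAM, ADAMTS or TIMP name followed by its number and, for MMP and ADAM, at most 1 letter. This gave 80 of the 23201 genes of the mouse KPC table and 47 of the 18190 genes of the human PANC1 table. By symbol, 46 genes were in both tables, and MMP1 was in the human table only. The 12 samples form 4 groups of 3 biological replicates, all labelled with a WT genotype. The groups are the mouse line KPC, its liver-metastatic derivative of the 2nd generation (KPC LM2), the human line PANC1 and its liver-metastatic derivative of the 3rd generation (PANC1 LM3). In all groups 500000 cells were given by way of the spleen on day 1, and the tumours of the liver were collected on day 21. The sample titles name only cells of each line, and not tumours. The labels do not say whether a derivative is 1 clone, and they give neither strain nor age of the host animals.

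MMPs are secreted or membrane-bound zinc proteases that cleave collagens, laminins and other matrix proteins, and they are made as inactive proenzymes. ADAMs are membrane-anchored relatives, many of which release the outer parts of growth factors, cytokines and adhesion receptors from the cell surface. ADAMTS enzymes are secreted, bind the matrix, and cut proteoglycans, procollagens or von Willebrand factor. TIMPs are small secreted proteins that block MMPs, and TIMP3 also blocks several ADAMs and ADAMTS enzymes. In pancreatic ductal carcinoma these families are known from matrix remodelling by both tumour cells and the surrounding stroma.

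Values are those of the authors' own comparison of each pair of groups: a mean normalised count over libraries (called the count below), a log2 fold change with its standard error (SE, given after ±) and a Wald test p-value adjusted over all genes. There is no value per library, so the spread over replicates enters only through the SE, and the depth of each sample is unknown. Which group is the numerator is not stated in either table, so a sign is only that of the listing and is given to no line, parental or selected. A gene is called here at an adjusted p under 0.05. In the KPC table the listed fold changes depended on level: genes with a mean normalised count under 16 had a median log2 fold change of -1.45, and those at 64 or more a median of 0.22. In the PANC1 table these medians were 0.10 and -0.03. KPC results were therefore also read with the level trend subtracted, which is the running median fold change of genes alike in count.

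Markers of other cell types were low in the authors' deposited tables, with exceptions. In KPC the 6 hepatocyte markers had counts from 2.82 to 26.7, the 4 neutrophil markers from 1.73 to 6.98, the 6 fibroblast markers from 5.55 to 19.9, the 5 endothelial markers from 4.64 to 27.7 and the leukocyte marker Ptprc 28.9. Of the 5 listed macrophage markers Cd14 at 471 and Mrc1 at 1073 were high. Among these host lists 2 KPC genes were called, both negative: Adgre1 at -2.88 ± 0.75 with a count of 13.4 and Col1a1 at -1.84 ± 0.63 with 19.9 in the authors' deposited table. The 6 tumour epithelium markers had KPC counts from 524 to 28158, of which Krt7 was called at 1.18 ± 0.18 and Epcam at -1.14 ± 0.28. In PANC1 5 of the 6 epithelial markers were called. The authors' deposited table listed KRT8 at -4.35 ± 0.06, KRT18 at -3.35 ± 0.05, KRT19 at -3.79 ± 0.05 and CDH1 at -3.92 ± 0.10, EPCAM at 0.97 ± 0.10, and KRT7, without a call, at 0.09 ± 0.26. Of the human genes of these lists 4 were called in PANC1. The PANC1 rows are human genes, mapped to the human build hg19, so they are no direct measure of cells of the host animals. Positive were CD68 at 1.91 ± 0.07 with a count of 1103 and COL3A1 at 1.05 ± 0.11 with 405. Negative were CDH5 at -4.09 ± 0.95 with 9.89 and S100A9 at -3.42 ± 1.51 with 2.30. Not called were, among others, COL1A1 at -0.13 ± 0.16 with 173 and CD14 at -0.59 ± 0.54 with 12.5 in the authors' deposited table. What part these marker differences have in the protease values was not tested. In such bulk samples fewer cells of a type and less RNA per cell cannot be told apart.

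In KPC, 15 members were called, 3 positive and 12 negative, of 78 that had an adjusted p. Over all genes 10.4% were called in the KPC comparison, 5.77% positive and 4.6% negative. The 4 smallest adjusted p-values belonged to Adamts9, Mmp24, Adam12 and Timp3, all negative, and the positive calls were the cell-surface sheddases Adam10 and Adam17 and the epilysin gene Mmp28. By level, 6 of 18 members at a count of 64 or more were called, against 12.7% of all genes at that level, and 5 of 41 tested members under 16, against 5.8% of all tested genes there. All 43 members under 16 were listed negative, where 89.7% of all genes were. The median log2 fold change over the 80 members was -1.15, beside -0.21 over all genes, and -0.01 for the members at 64 or more, beside 0.22. With the level trend subtracted 10 members were called, 2 positive and 8 negative, beside 5.65% of all genes (2.92% positive and 2.73% negative), and 8 of the 10 were among the 15. None of the 5 called members under 16 (Adam19, Adamts13, Mmp2, Mmp9 and Mmp16) was called with the level trend subtracted. With fold changes recentred on the median of genes at 64 or more, a shift of 0.22, 22 members were called, 3 positive and 19 negative, beside 2.52% of all genes positive and 8.19% negative. The 7 gained were Adamts2, Adamts6, Adamts10, Adamts12, Mmp25, Adam24 and Adam39, all negative. With the Wald statistic read against a t distribution of 4 degrees of freedom, 0 members and 0% of all KPC genes passed. By that distribution 15 members had an unadjusted p under 0.05. The share of all genes with an unadjusted p under 0.05 was not counted, here or for the groups below.

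**Figure D1:**
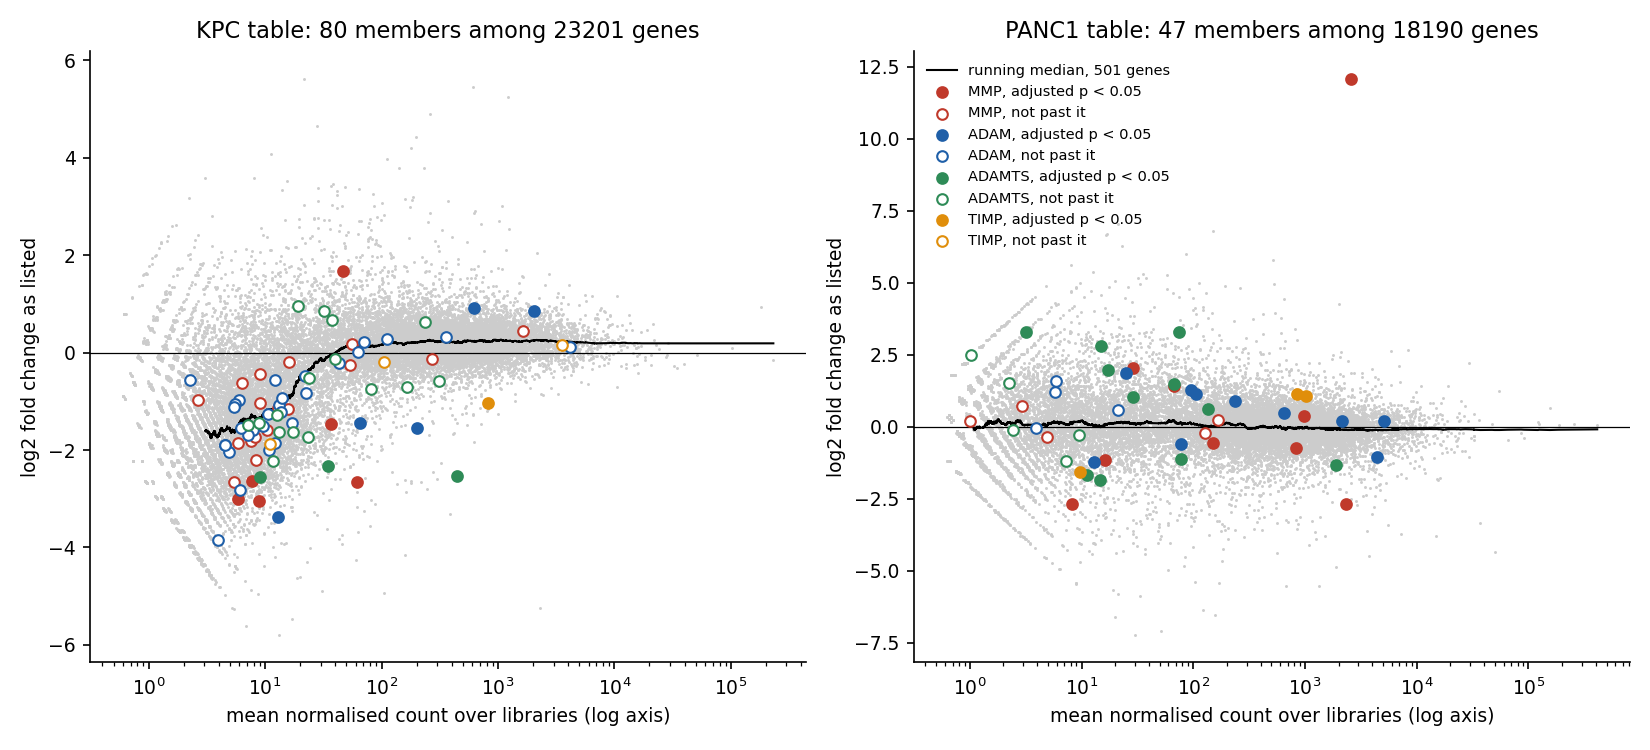
Log2 fold change as listed (vertical axis) against the mean normalised count (log horizontal axis) for all genes in grey and the members in colour, filled where the adjusted p is under 0.05; KPC on the left, PANC1 on the right, with the running median as a black line. The KPC line falls to the low counts, where all 43 members under 16 are negative, while the PANC1 line stays close to 0 and MMP1 stands alone at 12.09.

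In PANC1, 33 members were called, 20 positive and 13 negative, of 45 that had an adjusted p. Over all genes 52.5% were called in the PANC1 comparison, 26% positive and 26.5% negative. Of the 23 members at a count of 64 or more, 21 were called, where 69.3% of all genes at that level were. MMP1 had the largest fold change of the members, MMP2, ADAMTS15 and ADAM10 were negative at counts of 1901 or more, and the inhibitors TIMP1 and TIMP2 were positive. With the level trend subtracted 33 members were again called, beside 51.9% of all genes. With the t distribution 20 were, and the share of all PANC1 genes was not counted in that setting. The median log2 fold change over the 47 members was 0.36, beside 0.00 over all genes. The median SE over genes at 64 or more was 0.09, against 0.24 in KPC.

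**Figure D2:**
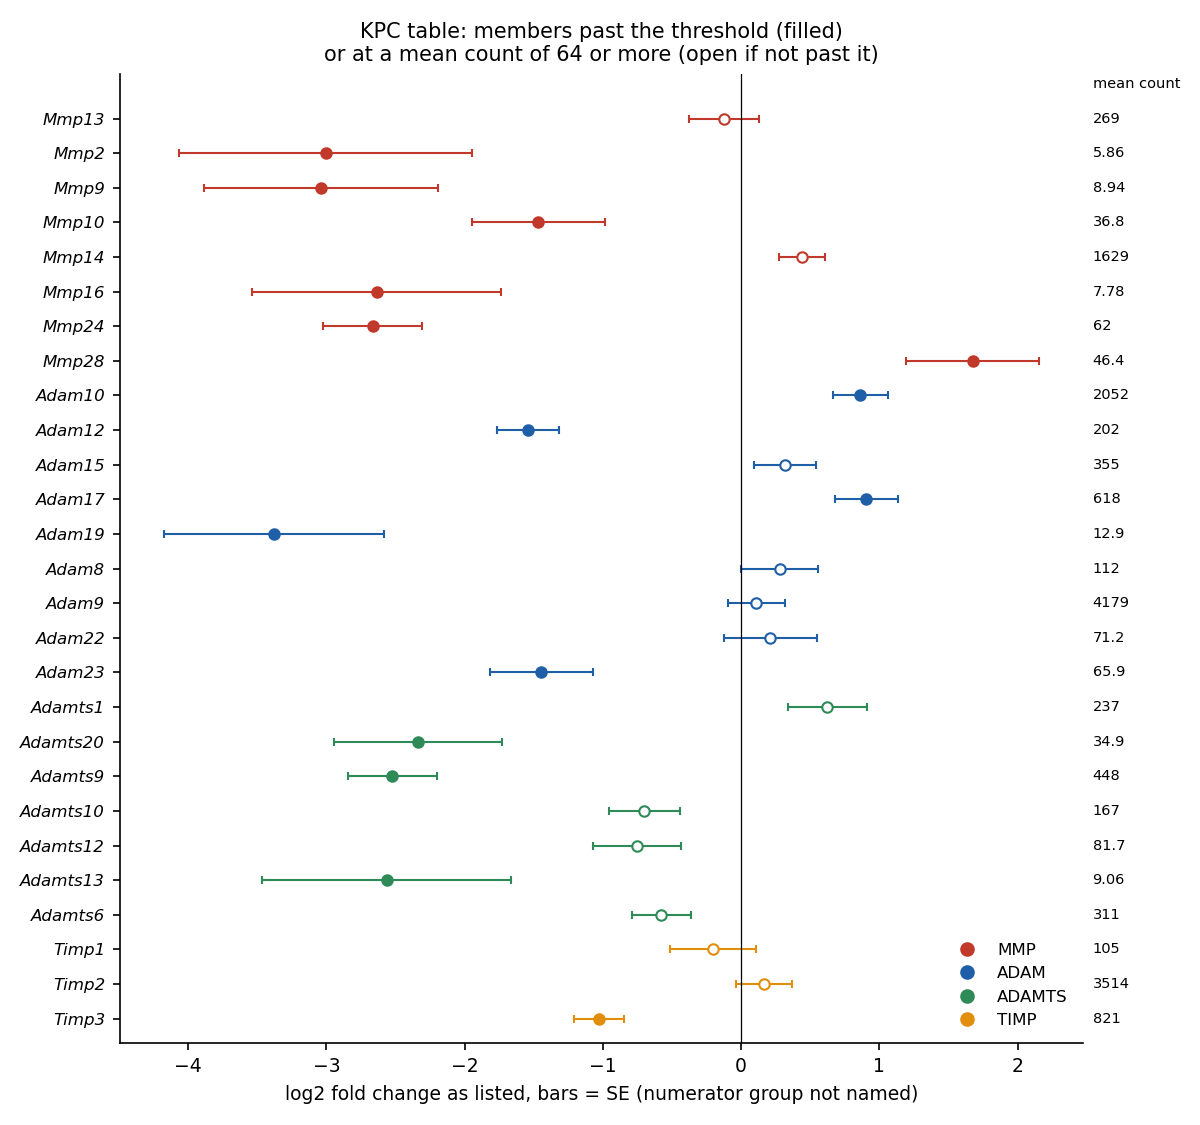
KPC members that were called (filled) or had a count of 64 or more without a call (open): log2 fold change as listed with its SE as a bar, and the mean normalised count at the right. Adam10, Adam17 and Mmp28 are the filled points right of 0, and the other 12 filled points lie left of it.

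**Figure D3:**
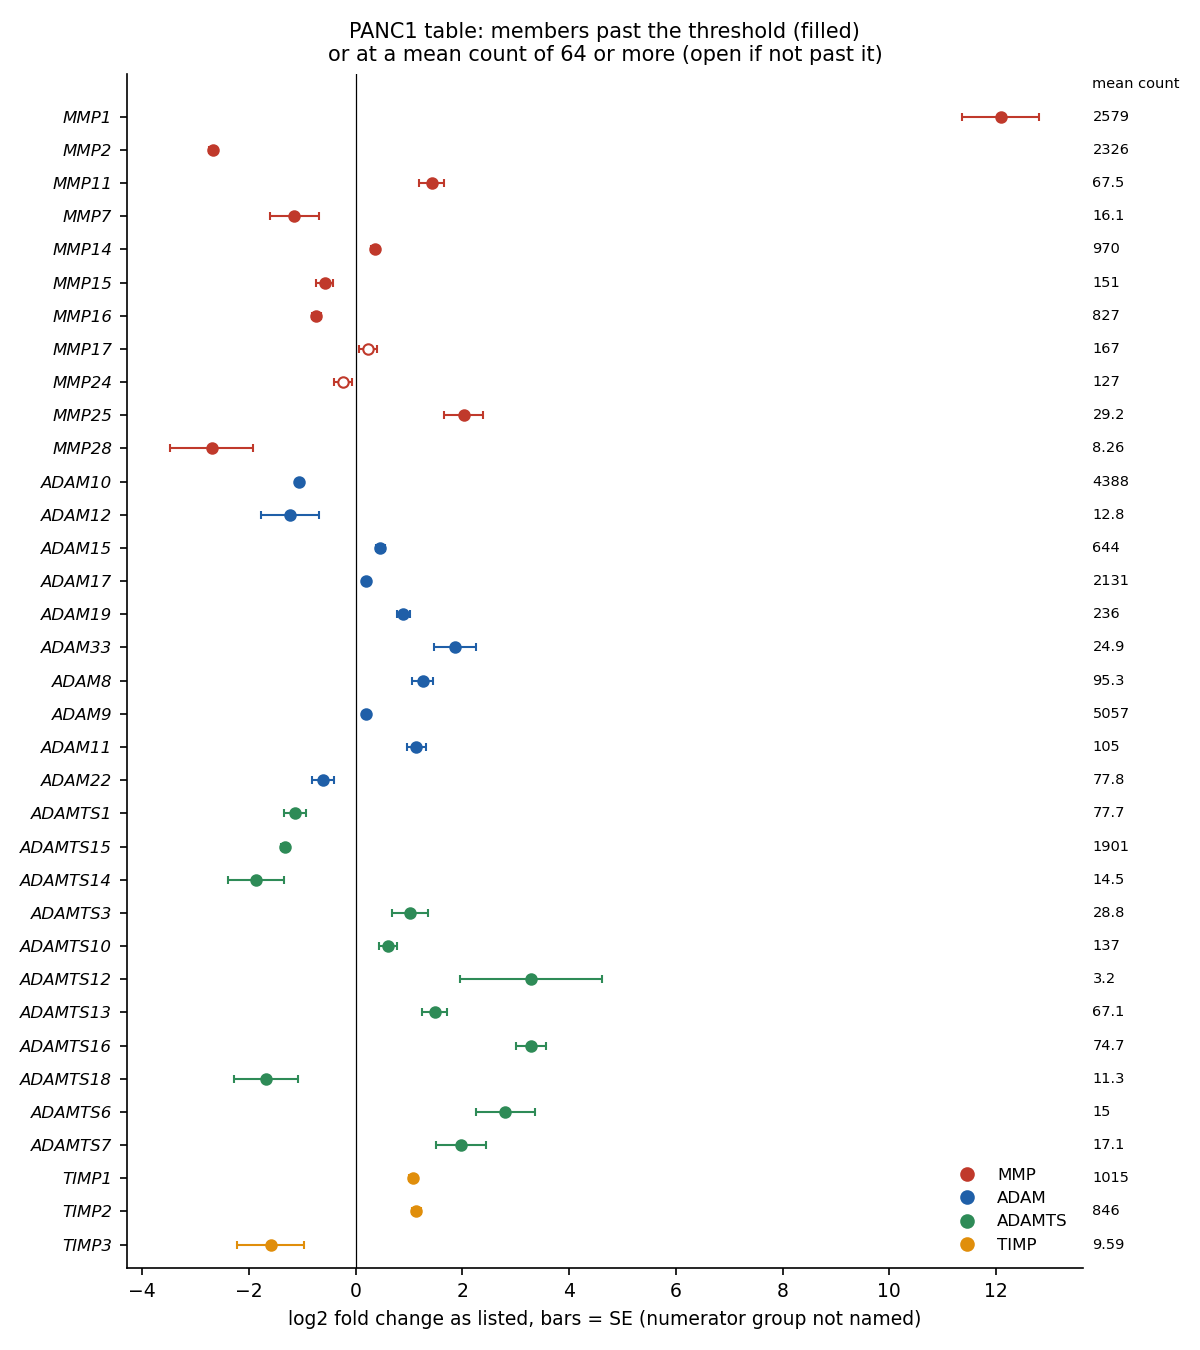
PANC1 members that were called (filled) or had a count of 64 or more without a call (open), drawn as log2 fold change with its SE and the mean normalised count at the right. MMP1 lies at 12.09, ADAMTS12 at 3.29 with a wide bar, and only MMP17 and MMP24 are open.

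Collagenases, which cut triple-helical fibrillar collagen, were represented in the human table by MMP1 alone, which was the member with the largest fold change. In the authors' deposited table MMP1, the interstitial collagenase, was listed at 12.09 ± 0.72 with a count of 2579 and an adjusted p of 4.69e-61. Its 95% interval ran from 10.7 to 13.5 on the log2 scale. If the authors' mean covers 3 libraries of each group, these values correspond to about 5157 normalised counts in one group and 1.18 in the other. These group means are computed from the listed mean and fold and are not values of the authors. Since the lower one is about 1 normalised count per library, the size of the fold rests on few reads. None of the 4 mouse collagenase genes was called, beside 10.4% of all KPC genes. The Wald test gave an unadjusted p under 0.05 to 1 of the 4. Mmp13, collagenase 3, was the only one of them above a count of 64, at -0.12 ± 0.25 with a count of 269 in the authors' deposited table, and its interval from -0.61 to 0.37 lay within a 2-fold change in either direction. The mouse genes Mmp1a and Mmp1b had counts of 5.90 and 5.41 and listed values of -1.85 ± 1.01 and -2.66 ± 1.31. They are related copies, so some reads could be split between them, and at such counts their values are uncertain. Mmp8, the neutrophil collagenase, was at -1.82 ± 1.00 with a count of 7.58 in the authors' deposited table. With the level trend subtracted, no mouse collagenase had an adjusted p under 0.53.

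The mouse collagenase genes lie with 6 other MMP genes in 1 cluster on chromosome 9, in which the RefSeq annotation of GRCm38 lists no other protein-coding gene. The order is Mmp13, Mmp12, Mmp1b, Mmp3, Mmp1a, Mmp10, Mmp8, Mmp27, Mmp20 and Mmp7. Human MMP1 belongs to the matching cluster, whose promoters are known for AP-1 elements, the binding site of FOS and JUN proteins. The RefSeq promoter table of GRCm38.p6 held 50 of the 80 mouse members. The 250 bases before each start were searched on both strands for TGACTCA and TGAGTCA, which are the reverse complement of each other. A match was present in 7 of the 10 cluster genes, in 2 of the 40 other members with a promoter (Adam29 and Adam19), and in 4.77% of 17491 protein-coding genes. These counts describe letters and not bound sites. The last 100 bases before the start are shown for the 7 cluster genes because the match lies within them in each, with the match in capitals, read 5′ to 3′ on the gene's strand. They cover chr9:7272414-7272513 (Mmp13), chr9:7347274-7347373 (Mmp12, the later of its 2 listed starts), chr9:7445722-7445821 (Mmp3), chr9:7464041-7464140 (Mmp1a), chr9:7502242-7502341 (Mmp10) and chr9:7691990-7692089 (Mmp7, the earlier of its 2), all on the plus strand. Mmp1b lies at chr9:7388027-7388126 on the minus strand.
Mmp13: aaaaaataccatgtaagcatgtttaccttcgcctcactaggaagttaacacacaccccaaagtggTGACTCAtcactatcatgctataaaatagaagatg
Mmp12: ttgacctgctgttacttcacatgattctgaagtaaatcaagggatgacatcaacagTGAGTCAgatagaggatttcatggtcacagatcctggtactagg
Mmp1b: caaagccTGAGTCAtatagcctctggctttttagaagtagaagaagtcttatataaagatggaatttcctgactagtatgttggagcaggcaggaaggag
Mmp3: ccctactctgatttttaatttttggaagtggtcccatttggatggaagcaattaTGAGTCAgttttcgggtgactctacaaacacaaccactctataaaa
Mmp1a: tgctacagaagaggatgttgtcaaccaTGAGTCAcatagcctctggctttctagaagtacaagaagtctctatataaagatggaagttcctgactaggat
Mmp10: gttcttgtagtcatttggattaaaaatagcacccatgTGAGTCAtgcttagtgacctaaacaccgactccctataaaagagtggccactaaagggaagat
Mmp7: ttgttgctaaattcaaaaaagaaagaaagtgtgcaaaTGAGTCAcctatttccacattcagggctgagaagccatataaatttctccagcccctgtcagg
The match began between 35 bases (Mmp13) and 93 bases (Mmp1b) before the start. Mmp13 has TGACTCA, and the other 6 have TGAGTCA. Of the 7 genes with a match, Mmp10 was called, Mmp13, Mmp3, Mmp12, Mmp1a and Mmp1b were not, and Mmp7 had no adjusted p. The cluster genes without a match (Mmp8, Mmp27 and Mmp20) had counts from 7.58 to 10.4 and were not called. All 10 genes of the cluster were listed negative in the authors' deposited table, from -0.12 ± 0.25 for Mmp13 to -2.66 ± 1.31 for Mmp1b, and 8 of the 10 had counts of 16.1 or less. Of all KPC genes, 89.7% were listed negative under a count of 16, 58.6% from 16 to under 64 and 26.6% at 64 or more. With the level trend subtracted Mmp10 had an adjusted p of 0.053.

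**Figure D4:**
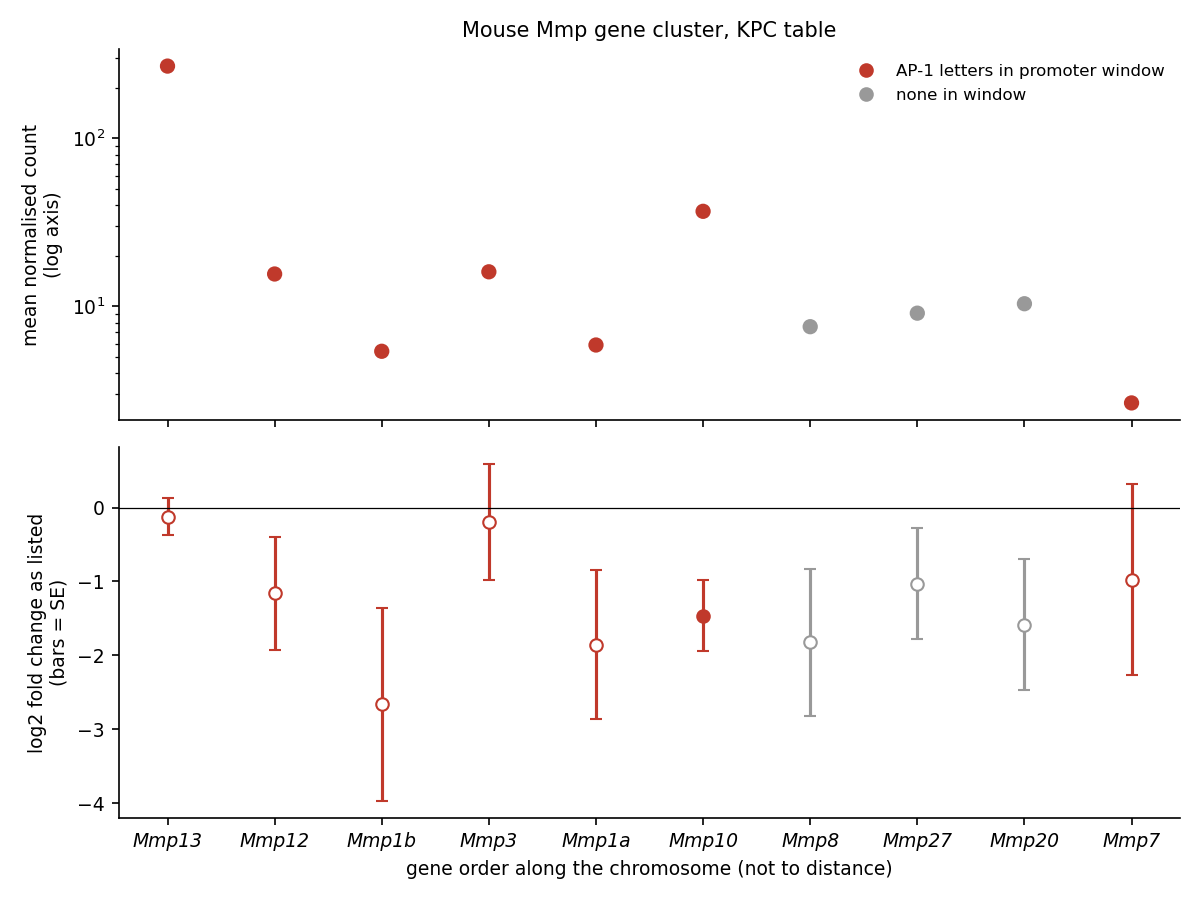
The 10 genes of the mouse Mmp cluster in chromosome order: mean normalised count in KPC (top, log axis) and log2 fold change with SE (bottom), red where the promoter window holds the AP-1 letters and grey where it does not; the filled point is the only called gene. Mmp13 is highest at 269 with a fold change near 0, and Mmp10 is filled at -1.47.

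Gelatinases, which cut denatured collagen and the type IV collagen of basement membranes, were both negative and called in KPC, at very low counts. At counts under 16, 5.8% of all tested KPC genes were called. The authors' deposited table listed Mmp2 at -3.01 ± 1.06 with a count of 5.86 (adjusted p = 0.046) and Mmp9 at -3.04 ± 0.84 with 8.94 (adjusted p = 0.0080). With the level trend subtracted their adjusted p-values were 0.54 and 0.28. In PANC1 the authors' deposited table gave MMP2 a count of 2326 and -2.68 ± 0.07, with an adjusted p listed as 0. This corresponds to computed group means of 4023 and 629, or a 6.40-fold difference. MMP9 was at -0.37 ± 0.82 with a count of 4.90 in the authors' deposited table and was not called, with an interval from -1.99 to 1.25.

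Stromelysins and matrilysins, broad matrix proteases that also activate other MMPs, were modest in level. In KPC Mmp10, stromelysin-2, was listed at -1.47 ± 0.48 with a count of 36.8 (adjusted p = 0.030) in the authors' deposited table. Mmp3, stromelysin-1, was at -0.20 ± 0.79 with 16.1 and Mmp11, stromelysin-3, at -0.25 ± 0.38 with 53.7, neither of them called. MMP11 of PANC1 was positive, at 1.43 ± 0.23 with a count of 67.5 and an adjusted p of 2.1e-09 in the authors' deposited table. MMP7, matrilysin, was negative in PANC1 at -1.15 ± 0.46 with 16.1 (adjusted p = 0.026), and in KPC it had a count of 2.67 and no adjusted p.

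Membrane-type MMPs act at the cell surface, and MMP14 is the known activator of pro-MMP2 together with TIMP2. In KPC Mmp14 was the most abundant MMP per length, with 389 normalised counts per kilobase of exon. It was listed at 0.44 ± 0.16 (adjusted p = 0.062) in the authors' deposited table, and at 0.20 with an adjusted p of 0.62 once the level trend was subtracted. Mmp24 was negative at -2.67 ± 0.36 with a count of 62.0 (adjusted p = 4.71e-11), and its adjusted p was 3.95e-12 with the level trend subtracted. Its computed group means were 107 and 16.9. Mmp16 was at -2.64 ± 0.90 with only 7.78 (adjusted p = 0.039), and at 0.52 by adjusted p in the trend setting. Mmp15, at 0.17 ± 0.43 with 56.2, Mmp17, at -0.44 ± 0.81 with 9.07, and Mmp25, at -2.20 ± 0.85 with 8.29, were not called, and Mmp25 had an adjusted p of 0.046 with recentring.

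In PANC1 4 of the 6 members of this group were called, 2 positive and 2 negative, beside 52.5% of all genes. Of the 6, 5 were at counts of 64 or more, where 69.3% of all genes were called. The authors' deposited table listed MMP14 at 0.36 ± 0.08 with a count of 970 (adjusted p = 6.03e-06) and MMP25 at 2.03 ± 0.36 with 29.2 (adjusted p = 9.26e-08). Negative calls were MMP16 at -0.74 ± 0.08 with 827 (adjusted p = 4.87e-18) and MMP15 at -0.58 ± 0.16 with 151 (adjusted p = 0.00061). MMP17 at 0.23 ± 0.17 and MMP24 at -0.23 ± 0.17 were not called in the authors' deposited table, and their intervals lay within -0.56 and 0.57.

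Among the other MMPs, Mmp28, epilysin, a secreted MMP of epithelia, was called in both tables with opposite listed signs. In KPC the authors' deposited table gave 1.68 ± 0.48 with a count of 46.4 (adjusted p = 0.011). In PANC1 it gave -2.70 ± 0.77 with 8.26 (adjusted p = 0.0012). The macrophage elastase gene Mmp12 and Mmp19, Mmp20, Mmp21, Mmp23 and Mmp27 had KPC counts from 6.38 to 15.6 and no call. MMP19 of PANC1 was at 0.70 ± 1.02 with a count of 2.96, and MMP21 had 1.01 and no adjusted p.

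Sheddase ADAMs with an active protease site were called in 4 of 9 cases in KPC, beside 10.4% of all genes, and in 8 of 8 in PANC1, beside 52.5%. ADAM10 and ADAM17 are the main sheddases of cell-surface proteins: ADAM10 cuts Notch receptors, cadherins and CD44, and ADAM17 releases TNF and several ligands of the EGF receptor. In KPC the authors' deposited table listed Adam10 at 0.86 ± 0.20 with a count of 2052 (adjusted p = 0.00083), or computed group means of 2648 and 1455. Adam17 was at 0.91 ± 0.23 with 618 (adjusted p = 0.0028), or computed group means of 806 and 430. With the level trend subtracted these were 0.61 (adjusted p = 0.045) and 0.67 (adjusted p = 0.057). In PANC1 the 2 genes had different listed signs. ADAM10 was at -1.06 ± 0.06 with a count of 4388 (adjusted p = 2.08e-68) and computed group means of 5929 and 2846, while ADAM17 was at 0.20 ± 0.06 with 2131 (adjusted p = 0.0033) in the authors' deposited table.

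Adam9, a sheddase widely made by epithelial tumours, was the highest member of KPC per length, with 1033 normalised counts per kilobase. It was not called in KPC, at 0.11 ± 0.21 with an interval from -0.30 to 0.52, and its sign was negative with the level trend subtracted (-0.11). In PANC1 the authors' deposited table gave ADAM9 a count of 5057 and 0.20 ± 0.05 (adjusted p = 0.00061). ADAM12, which is made in mesenchymal and tumour cells, was negative and called in both tables. It was at -1.54 ± 0.22 with a count of 202 (adjusted p = 1.74e-09) in KPC and at -1.22 ± 0.54 with 12.8 (adjusted p = 0.047) in PANC1, as given in the authors' deposited tables. The KPC value stood at -1.75 with an adjusted p of 3.11e-12 with the level trend subtracted.

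ADAM19, known for neuregulin processing, was called in both tables with opposite listed signs, but at only 12.9 counts in KPC. The authors' deposited tables listed it at -3.38 ± 0.80 (adjusted p = 0.00097) in KPC, where the trend setting gave an adjusted p of 0.066, and at 0.89 ± 0.12 with 236 counts (adjusted p = 4.7e-12) in PANC1. ADAM8, a sheddase of leukocytes and tumour cells, was at 0.28 ± 0.28 with a count of 112 in KPC and not called, and at 1.26 ± 0.20 with 95.3 (adjusted p = 1.82e-09) in PANC1. ADAM15 was at 0.32 ± 0.22 with 355 in KPC, without a call, and at 0.46 ± 0.08 with 644 (adjusted p = 2.1e-07) in PANC1. ADAM33 was at -2.82 ± 1.10 with 6.13 in KPC, not called, and at 1.87 ± 0.40 with 24.9 (adjusted p = 8.31e-06) in PANC1. Of the 8 PANC1 sheddases 6 were positive and 2 negative, and the 4 called in KPC were 2 positive and 2 negative. The remaining KPC sheddase, Adam28, had a count of 21.9 and no call.

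ADAM11, ADAM22 and ADAM23 lack an active protease site and are known as receptors and adhesion proteins of neurons. In KPC Adam23 was negative at -1.45 ± 0.37 with a count of 65.9 (adjusted p = 0.0034), and its trend-subtracted adjusted p was 0.0011. Adam22, at 0.21 ± 0.34 with 71.2, and Adam11, at -1.50 ± 0.72 with 9.55, were not called in the authors' deposited table. In PANC1 ADAM11 was positive at 1.14 ± 0.18 with 105 (adjusted p = 3.41e-09) and ADAM22 negative at -0.61 ± 0.21 with 77.8 (adjusted p = 0.0073). ADAM23 had a PANC1 count of 5.77 and was at 1.20 ± 0.74, without a call.

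ADAMs of the testis and epididymis, known from sperm function, made up 22 of the 80 KPC members and none was called, although Adam24 (adjusted p = 0.037) and Adam39 (adjusted p = 0.047) were with recentring. The Wald test gave an unadjusted p under 0.05 to 4 of them. Of the 22, 18 had counts under 16, where 5.8% of all tested KPC genes were called. Listed negative were 21 of the 22, beside 89.7% of all KPC genes under 16. The highest were Adam4, at 63.4 counts and 0.01 ± 0.36, and Adam1a, at 43.3 counts and -0.22 ± 0.37, in the authors' deposited table. Several are closely related pairs (Adam6a and Adam6b, Adam26a and Adam26b), for which reads could be split. The PANC1 table held 3 of this group, ADAM20, ADAM21 and ADAM32, with counts from 3.93 to 21.1. None was called, beside 52.5% of all genes, and 1 had an unadjusted p under 0.05.

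Aggrecanase-type ADAMTS enzymes cut aggrecan, versican and related proteoglycans. In KPC Adamts9 was negative at -2.52 ± 0.32 with a count of 448 (adjusted p = 1.95e-12), with computed group means of 764 and 133. It had the smallest adjusted p of the KPC members, also with the level trend subtracted (1.11e-14). Adamts20, its closest relative in domain layout, was at -2.34 ± 0.61 with 34.9 (adjusted p = 0.0041, and 0.0078 in the trend setting). Adamts1 was listed at 0.62 ± 0.29 with 237 and Adamts15 at 0.67 ± 0.44 with 37.4, neither called. In PANC1 ADAMTS9 had a count of 1.03 and no adjusted p, and ADAMTS15 was called at -1.33 ± 0.06 with 1901 (adjusted p = 2.28e-92) in the authors' deposited table. Its computed group means were 2718 and 1084. ADAMTS1 was also negative there, at -1.13 ± 0.21 with 77.7 (adjusted p = 4.56e-07). Adamts4, Adamts5 and Adamts8 of KPC and ADAMTS4 and ADAMTS8 of PANC1 were not called, with counts from 2.26 to 40.1.

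Procollagen N-propeptidases of the ADAMTS family trim fibrillar procollagens before assembly. None of the 3 was called in KPC, beside 10.4% of all genes. Counts there were 11.6 for Adamts2, 17.3 for Adamts3 and 19.1 for Adamts14. The Wald test gave an unadjusted p under 0.05 to 2 of them, and Adamts2 had an adjusted p of 0.047 with recentring. In PANC1 the authors' deposited table listed ADAMTS3 at 1.02 ± 0.34 with 28.8 (adjusted p = 0.0062) and ADAMTS14 at -1.87 ± 0.52 with 14.5 (adjusted p = 0.00091). ADAMTS2 was at -0.11 ± 1.17 with 2.41 and not called.

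The other ADAMTS genes include ADAMTS13, which cuts von Willebrand factor, ADAMTS7 and ADAMTS12, which cut cartilage oligomeric matrix protein, and the fibrillin-binding ADAMTS6 and ADAMTS10. In PANC1 7 of 8 were called, 6 of them positive, where 52.5% of all genes were called and 26% were positive calls. The authors' deposited table listed ADAMTS16 at 3.28 ± 0.28 with a count of 74.7 (adjusted p = 6.09e-31) and computed group means of 136 and 13.9. ADAMTS13 was at 1.48 ± 0.23 with 67.1 (adjusted p = 1.15e-09) and ADAMTS6 at 2.81 ± 0.56 with 15.0 (adjusted p = 1.81e-06). ADAMTS7 was at 1.98 ± 0.47 with 17.1, ADAMTS10 at 0.61 ± 0.16 with 137, and ADAMTS12 at 3.29 ± 1.33 with 3.20 in the authors' deposited table. The computed lower group mean of ADAMTS12 was 0.59, under 1 count per library, so its fold is a fitted value and no bound. ADAMTS18 was the negative call, at -1.68 ± 0.60 with 11.3 (adjusted p = 0.012), and ADAMTS17 was not called.

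In KPC 1 of these 9 genes was called, beside 10.4% of all genes. It was Adamts13, at -2.56 ± 0.90 with a count of 9.06 (adjusted p = 0.045). Its adjusted p with the level trend subtracted was 0.58. Adamts6 and Adamts10 were just outside the threshold, at -0.58 ± 0.21 with 311 counts (adjusted p = 0.058) and -0.70 ± 0.26 with 167 (adjusted p = 0.057) in the authors' deposited table. Both were called with the level trend subtracted, at -0.81 (adjusted p = 0.0059) and -0.90 (adjusted p = 0.013). Adamts12 was at -0.75 ± 0.32 with 81.7 and not called in either setting, but its adjusted p was 0.031 with recentring. Adamts7 was at 0.86 ± 0.49, and Adamts16, Adamts17, Adamts18 and Adamts19 had counts from 8.80 to 23.3 and no call.

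The TIMP inhibitors differed in which gene was called. Timp3, which binds the matrix and blocks ADAM17 as well as MMPs, was negative in KPC at -1.03 ± 0.18 with a count of 821 (adjusted p = 1.47e-06). Its computed group means were 1101 and 540, a 2.04-fold difference, and it was at -1.26 with an adjusted p of 9.57e-10 in the trend setting. TIMP3 of PANC1 was also negative, at -1.59 ± 0.63 with only 9.59 (adjusted p = 0.023) in the authors' deposited table. Timp2 was the second most abundant KPC member per length, with 947 normalised counts per kilobase, and was not called, at 0.17 ± 0.21 with an interval from -0.24 to 0.57. Timp1, at -0.20 ± 0.31 with 105 counts, and Timp4, at -1.87 ± 0.89 with 11.1, were not called in KPC. In PANC1 the authors' deposited table listed TIMP1 at 1.08 ± 0.07 with 1015 (adjusted p = 2.04e-48) and TIMP2 at 1.14 ± 0.09 with 846 (adjusted p = 1.68e-39). Their computed group means were 1378 and 653 for TIMP1 and 1164 and 528 for TIMP2.

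Within KPC, levels per length put few members near the top of the table. Exonic length was available for 79 of the 80 members from GENCODE M21. Adam9, Timp2, Adam10, Mmp14 and Timp3 led, with 1033, 947, 447, 389 and 174 normalised counts per kilobase, at percentiles 98.3, 98.1, 94.4, 93.3 and 83.8 of all genes with a length. Adam17, Adam15 and Timp1 followed at 137, 119 and 119. The called genes Mmp9 and Mmp2 were at 2.82 and 1.9 per kilobase, and rank 55 and 66 of the members. Human lengths were not used here, so levels of different PANC1 genes are not ranked.

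A list of 45 partners and substrates of these enzymes gave 13 calls of 44 tested genes in KPC, 8 positive and 5 negative, and 32 of 41 in PANC1, 12 positive and 20 negative. Over all genes 10.4% were called in KPC and 52.5% in PANC1. The median count of the list was 226 in KPC and 361 in PANC1. At counts of 64 or more, 12.7% of all KPC genes and 69.3% of all PANC1 genes were called. In KPC the proteoglycan substrates versican (Vcan, 1.32 ± 0.22, adjusted p = 3.95e-07) and aggrecan (Acan, 1.15 ± 0.22, adjusted p = 1.54e-05) were positive in the authors' deposited table, while 2 aggrecanase genes, Adamts9 and Adamts20, were negative. The other 5 aggrecanase genes were not called, and of these Adamts1 and Adamts15 were listed positive. The related substrates Bcan (-1.99 ± 1.04, count 4.86) and Ncan (-0.93 ± 0.96, count 14.1) were listed negative and not called. Syndecan-1 (Sdc1) was at 0.73 ± 0.16 and the EGF receptor ligand betacellulin (Btc) at 1.50 ± 0.40. Negative in the authors' deposited table were neuregulin-1 (Nrg1, -1.66 ± 0.25), the proprotein convertase genes Pcsk6 (-0.65 ± 0.19) and Pcsk5 (-2.27 ± 0.67), and Adamtsl3 (-1.48 ± 0.44), an ADAMTS-like protein without protease activity.

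In PANC1 the ligand genes EREG (2.48 ± 0.07) and HBEGF (2.52 ± 0.11), both released by ADAM17, had the smallest adjusted p-values of the positive partners in the authors' deposited table. TFPI2, a serine protease inhibitor of the matrix, was at 1.83 ± 0.18 and ADAMTSL4, a fibrillin-binding protein, at 1.22 ± 0.14. The negative ones were thrombospondin-1 (THBS1, -2.08 ± 0.09), CD44 (-0.90 ± 0.05), the ADAM10-binding tetraspanin TSPAN15 (-1.05 ± 0.08) and syndecan-4 (SDC4, -0.75 ± 0.07) in the authors' deposited table. Of the 6 ligand genes of the EGF receptor family in the list, 4 were positive and 1 negative in PANC1. In KPC 2 were positive, and the 1 negative was neuregulin-1 (Nrg1). Of the 6 tetraspanins that carry ADAM10 to the cell surface, 4 were negative and 1 positive in PANC1, and 1 negative in KPC. All 4 proprotein convertase genes, which activate ADAMs and membrane-type MMPs, were negative in PANC1, while KPC had 1 positive and 2 negative. Over all genes 26% were positive calls and 26.5% negative calls in PANC1, and 5.77% and 4.6% in KPC. These subgroups of the list were formed after its values were seen, so their counts by sign are no test.

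Set side by side, 43 members had an adjusted p in both tables, of which 9 were called in both, 3 in KPC alone and 22 in PANC1 alone. Of the 12777 genes tested in both tables, 7.61% were called in both, 4.09% in KPC alone and 53.6% in PANC1 alone. Adam12, Adam17, Mmp2, Mmp16 and Timp3 had the same listed sign, and Adam10, Adam19, Adamts13 and Mmp28 opposite ones. Since neither table names its numerator, the sizes of the fold changes were compared in a way that holds whichever order the tables have. Both the difference and the sum of the 2 fold changes were tested over 12777 genes matched by symbol, and 8 members passed in both, where 13.4% of all genes did. On simulated data this rule made too many false calls, so the larger of the 2 p-values was also adjusted, which called 9.69% of all genes. In that stricter form 6 members differed in size. Mmp24 and Adam19 were larger in KPC by 2.44 ± 0.40 (adjusted p = 6.83e-08) and 2.49 ± 0.81 (adjusted p = 0.025), and Adam17 by 0.71 ± 0.24 (adjusted p = 0.035), on the log2 scale. With the level trend subtracted, Adam17 was at 0.67 in KPC and 0.31 in PANC1, and Adam19 at -2.28 and 0.84. Whether the sizes of these 2 still differed in that setting is not given here. Adamts6, Adam8 and Timp2 were larger in PANC1, with differences of -2.23 ± 0.60 (adjusted p = 0.0037), -0.98 ± 0.34 (adjusted p = 0.046) and -0.98 ± 0.22 (adjusted p = 0.00036) for the KPC size minus the PANC1 size. For ADAM10 the sizes were 0.86 in KPC and 1.06 in PANC1, and a difference in size was not detected (adjusted p = 0.73).

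**Figure D5:**
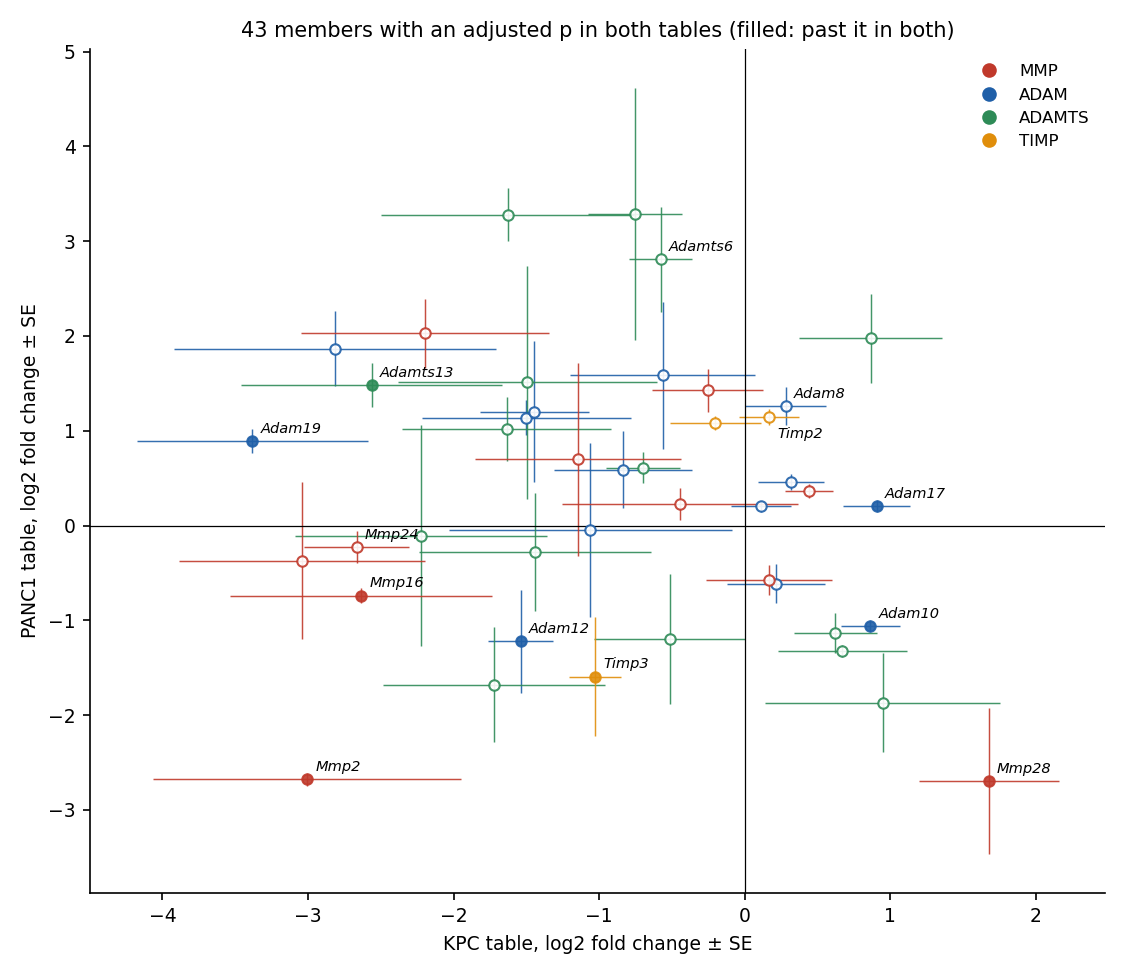
Log2 fold change with SE of the 43 members tested in both tables, KPC on the horizontal and PANC1 on the vertical axis, filled where called in both and labelled where called in both or different in size. Adam10 and Mmp28 lie at the lower right, Adam19 and Adamts13 at the upper left, and Mmp2, Mmp16, Adam12 and Timp3 at the lower left.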

How the data were processed

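RNA sequencing libraries of 12 samples were compared in 2 tables, 1 per model, with 0 columns of a single sample. Per the submitters' processing notes, STAR 2.7.6a, featureCounts 2.0.0, MultiQC 1.9 and DESeq2 1.24 were used, with the builds mm39 and hg19; settings, annotation and model design are not given in the sources used here. Per the file headers, the authors deposited a mean normalised count, a signal read here as counts divided by size factors and averaged over libraries. They deposited log2 fold changes with SE on the log2 scale, apparently without shrinkage, and the Wald statistic as a score, which equalled their ratio within 9.17e-08. Deposited p-values were two-sided normal p-values of that statistic, adjusted by Benjamini-Hochberg over 20050 KPC genes (counts of 3.08 or more) and 17838 PANC1 genes (1.08 or more). A signed logarithm of the p-value was not used.

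The authors' adjusted p under 0.05 was the call. Members, gene lists and roles were chosen with earlier results of these data known. Named are all called members, members at 64 or more, their counterparts, the TIMPs, and up to 4 partners per sign; the split of ADAMs by protein motif was replaced by textbook roles, since protein sequences were not used here. Promoters and gene order came from RefSeq, GRCm38.p6, and lengths from GENCODE M21, another build than mm39. Group means were computed from the mean and the fold for 3 libraries a group. Recovery was tested on simulated data with normal errors. A change of 1 on the log2 scale was called in 72% of the 100 genes so changed for KPC (20050 genes) and 98% for PANC1 (17838 genes), and a change of 2 in 100% for each. Changes were planted only in genes at a count of 64 or more, so recovery at lower counts was not tested. For the size comparison over 12777 genes, 45.9% of calls were false with the 2 p-values adjusted apart and 2.99% with the larger one adjusted, so the latter was added after the data were seen. Alternatives were a stricter p, a fold minimum, other sets for the adjustment, recentring, the level trend and a t distribution. Computation used scipy 1.17.1, pandas 2.3.3 and numpy 2.4.6 under Python 3.11.15, with plots from matplotlib 3.10.9.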

Additional observations from a re-analysis of the deposited data

Results flagged for a closer look

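In 6 of 43 members the size of the fold change differed between the models by the test of the difference itself, in both forms of the adjustment. Of all genes tested in both tables, 9.69% passed in the stricter form and 13.4% with the 2 p-values adjusted apart. Sizes are absolute log2 fold changes, KPC minus PANC1. The differences were 2.44 for Mmp24, 2.49 for Adam19 and 0.71 for Adam17, larger in KPC, and -2.23 for Adamts6, -0.98 for Adam8 and -0.98 for Timp2, larger in PANC1. Adam19 had a mean normalised count of 12.9 in KPC and ADAMTS6 one of 15.0 in PANC1, while the other 4 were at 62.0 or more in both tables. Timp1 and Mmp11 passed only with the 2 p-values adjusted apart. The sizes of Adam17 and Adam19 lay closer together between the models with the level trend subtracted. Adam17 was then at 0.67 in KPC and 0.31 in PANC1, and Adam19 at -2.28 and 0.84. The SE of the difference was 0.24 for Adam17 and 0.81 for Adam19. With the 2 p-values adjusted apart, 5 members passed once the level trend was subtracted, in place of 8. Which members these were is not given here, so a size difference of Adam17 or Adam19 is not established in that setting.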

How the results depend on the processing

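No paired analysis was possible because the tables hold no value per library; for the same reason no replicate was left out in turn. With genes at 64 or more only, 8 members were called in KPC, 6 of the 15 together with Adamts6 and Adamts10. In PANC1 21 were called, all among the 33, and 4 differed in size between the models. Members under 64 were not tested in this setting. With a t distribution of 4 degrees of freedom for the Wald statistic, 0 members and 0% of all genes passed in KPC, where 15 had an unadjusted p under 0.05, and 20 passed in PANC1. An adjusted p under 0.01 left 10 members in KPC, 28 in PANC1 and 4 differing in size. The level trend left 5 differing in size, and the cause was not tested. The share of all genes was not counted at an adjusted p under 0.01 or with the adjustment redone within genes at 64 or more. Nor was it counted for the t distribution in PANC1 or for the sizes under these settings. Whether members differed from all genes there was therefore not tested. Recentring shifted KPC values by 0.22 and called 22 KPC members, all 15 among them. It reversed the listed sign of uncalled KPC members: Mmp15 to -0.0523, Adam9 to -0.11, Adam22 to -0.00663 and Timp2 to -0.0536. Subtracting the level trend reversed Mmp17 to 0.91, Adam9 to -0.11 and Timp2 to -0.0589. No named PANC1 member changed sign under these 2 settings, and the call of ADAM12 was lost with recentring (adjusted p = 0.054). The depth of each library is unknown, and the median SE was 1.15 for KPC genes under 16, against 0.24 at 64 or more.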
